A study of Saccharomyces cerevisiae with 8 samples.

Results

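Polyadenylated RNA of a budding yeast strain lacking both AIR1 and RRP6 (air1 rrp6) was compared with that of its wild type parent (WT). The air1 rrp6 strain carries rrp6::LEU2 and air1::bleR on top of the parent's markers, and WT is BY4742, a MAT-alpha strain with his3D1, leu2D0, lys2D0 and ura3D0. The comparison takes every feature of the count table over the 4 libraries of these strains, 2 for each strain, out of 8 libraries in the series. The table lists 9014 features, of which 7543 had enough counts to be tested. The other 4 libraries come from the rrp6 strain (rrp6::LEU2) and the air2 rrp6 strain (rrp6::LEU2 air2::bleR), with 2 libraries each, and all 6 mutant libraries therefore share the RRP6 deletion and its LEU2 marker. Cultures were grown in YPD at 30 °C until the OD600 reached 2.5, and RNA with a poly(A) tail was selected on poly(U) sepharose before SOLiD sequencing. Each strain started from 1 colony, and no label says whether its duplicates were separate cultures, so the p-values cover the spread among these libraries alone, and that spread may be technical.

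Rrp6 is the exonuclease subunit that the RNA exosome has in the nucleus alone. Air1 and its paralog Air2 are zinc knuckle proteins of TRAMP, a complex in which Trf4 or Trf5 adds a short adenosine tail to a nuclear RNA and the helicase Mtr4 hands it to the exosome. Their known substrates include cryptic unstable transcripts (CUTs), which nuclear decay normally keeps rare, and precursors of small nucleolar and spliceosomal RNAs, whereas stable unannotated transcripts (SUTs) are noncoding RNAs found in wild type cells too.

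Total counts were 20720755 and 16087567 in air1 rrp6, against 13787609 and 124620247 in WT. Ribosomal DNA features took 70.8 and 51.7% of the counts in air1 rrp6, and 66.9 and 82.3% in WT. WT replicate 2 was therefore the deepest library and had the largest ribosomal share. Outside ribosomal DNA the counts were 6054090 and 7770018 in air1 rrp6, against 4565468 and 22041136 in WT. Levels below are CPM on the TMM scale (counts scaled by library sizes that were corrected by trimmed mean of M-values), and changes are log2 fold changes with their standard error (SE). The duplicates of each strain differed by far more than counting error. Alpha mating genes (MF(ALPHA)1, MF(ALPHA)2, STE3 and SAG1) summed to 785 and 660 CPM in air1 rrp6, against 645 and 863 CPM in WT. The 7 genes of the opposite type summed to 13.2 and 9.71 CPM in air1 rrp6, against 14.2 and 9.89 CPM in WT, most of it from STE6, so both strains matched the labelled mating type.

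The deleted genes and the marker were checked next. AIR1 had 7 and 2 counts in air1 rrp6, against 210 and 1212 counts in WT, a log2 change of -6.34 (SE 0.44, adjusted p = 7.7e-05 by edgeR's quasi-likelihood test). RRP6 had 19 and 46 counts in air1 rrp6, against 377 and 2131 counts in WT (log2 change -4.41). Both genes were low in both mutant libraries, with no overlap with WT. The marker LEU2, an isopropylmalate dehydrogenase gene that the parent lacks, had 219 and 243 counts in air1 rrp6 and 0 counts in both WT libraries. It was at least 275-fold higher in air1 rrp6, taking a floor of 3 counts over the WT group. AIR2, the remaining paralog, had 10.6 and 13.4 CPM in air1 rrp6, against 8.21 and 7.88 CPM in WT, a log2 difference of 0.58 that did not pass the threshold (adjusted p = 0.22). HIS3 did not pass it either (log2 difference 0.51, adjusted p = 0.48). Of the 12 genes flanking the RRP6, AIR1 and LEU2 loci, none passed, and their log2 differences lay between -0.71 and 0.64. Those beside LEU2 included YCL019W and YCL020W. YCL021W-A, which follows these in systematic number, was not among the 12 and did pass (log2 rise 2.81).

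At an adjusted p below 0.05 over all tested features, 576 features were higher in air1 rrp6 than in WT (7.64% of those tested) and 57 were lower (0.756%). At an unadjusted p below 0.05 there were 1492. The median log2 difference of all tested features was 0.02. Of the 633 called features, 117 stayed past the threshold when each of the 8 libraries was left out in turn. With each library left out, the count of higher features ran from 156 to 556 and that of lower features from 18 to 57. With the ribosomal share of each library as a covariate, 136 of the 633 calls remained. Among the coding genes and small RNAs named below, those that kept their calls in that fit were the deleted genes, LEU2, GYP5, YNL040W, LEU1, OAC1, PHO12, RPL8A, GDH1, YJL047C-A, YCL021W-A, HPF1, FLO1 and U4.

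**Figure D1:**
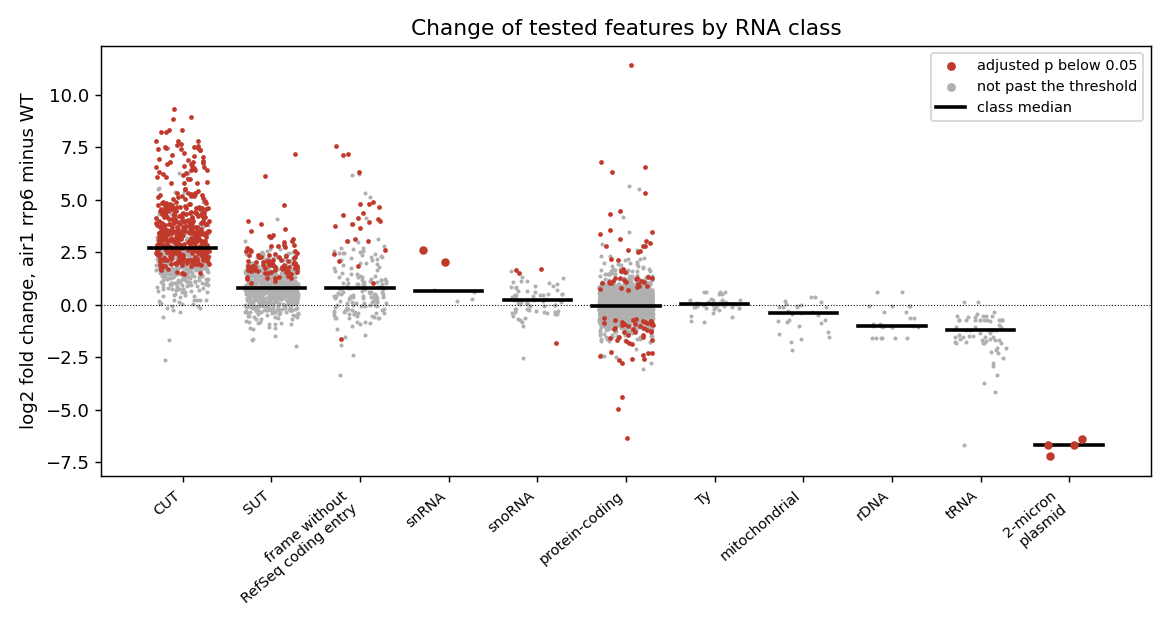
Log2 fold change of each tested feature (air1 rrp6 minus WT, vertical axis) by RNA class, with features past the threshold in red, the others in grey and the class median as a black bar. CUTs had a median of 2.72 and the 4 plasmid features one of -6.66, while the median of protein-coding genes was -0.07.

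CUTs were the class with the most rises. The table lists 925 CUTs. Of these, 759 were tested, and 406 of these (53.5%) rose while 0 fell by edgeR's quasi-likelihood test, against 7.64% higher and 0.756% lower over all features. Their median log2 difference was 2.72, with quartiles at 1.92 and 3.82, beside 0.02 for all features. It was 2.68 when the 50 CUTs with no count in WT were set at the floor. Both air1 rrp6 libraries lay above both WT libraries in 706 CUTs (28.6% of all tested features did so) and below them in 2 (20.1% of all). More than a 4-fold difference was seen in 551 CUTs and more than a 16-fold one in 165. Leaving out 1 library gave 117 to 384 CUTs called, and the ribosomal share as a covariate gave 90.

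Summed over the class, CUTs had 1312 and 1420 CPM in air1 rrp6, against 181 and 263 CPM in WT. Both air1 rrp6 sums lay above both WT sums, and the ratio of the means was 6.16. As a share of the counts outside ribosomal DNA and mitochondria, CUTs took 0.393 and 0.459% in air1 rrp6, against 0.0516 and 0.0762% in WT. More CUTs were called at higher levels. Among the 253 CUTs of lowest mean level 63 were called (24.9%), among the middle 253 there were 142 (56.1%), and among the highest 253 there were 201 (79.5%). The medians of these sets were much closer to each other, at 2.59, 2.77 and 2.72.

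CUT306 had the highest level of the 10 CUTs named here. It had 107 and 118 CPM in air1 rrp6, against 2.98 and 4.59 CPM in WT, a log2 rise of 4.85 (SE 0.34, adjusted p = 7.7e-05). CUT222 had 20.2 and 17.4 CPM in air1 rrp6, against 0.161 and 0.230 CPM in WT, a rise of 6.43 (SE 0.29, adjusted p = 1.2e-05). CUT221 had 50.1 and 35.3 CPM in air1 rrp6, against 1.21 and 0.970 CPM in WT (log2 rise 5.34). CUT841 had 18.9 and 25.2 CPM in air1 rrp6, against 0.483 and 0.181 CPM in WT (log2 rise 6.42). Non-overlap with WT was required of the CUTs and SUTs named here and is no result.

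CUT433 and CUT350 were close to absent in WT. CUT433 had 84 and 140 counts in air1 rrp6, against 0 and 1 counts in WT, a ratio of 399 per effective library size (exact 95% interval 70.9 to 15800, counting error only). CUT350 had 97 and 119 counts in air1 rrp6, against 0 and 2 counts in WT, a ratio of 193 (52.7 to 1600). The other 4 CUTs named by size were CUT515, CUT543, CUT655 and CUT260, with log2 rises of 4.94, 4.72, 3.70 and 3.46. CUT543 alone of the 10 lost its call, at an adjusted p of 0.052 both without air1 rrp6 replicate 2 and with the ribosomal covariate.

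SUTs moved less. Of 687 tested SUTs 91 rose (13.2%) and 0 fell, against 7.64% higher and 0.756% lower over all features, with a median log2 difference of 0.83. In 438 SUTs both air1 rrp6 libraries lay above both WT libraries, as in 28.6% of all tested features. Leaving out 1 library gave 21 to 88 SUTs called, and the ribosomal covariate gave 17. Their sum was 1636 and 1723 CPM in air1 rrp6, against 894 and 1008 CPM in WT, a ratio of means of 1.77. Here too calls rose with level, with 7, 28 and 56 called in the lowest, middle and highest of 3 sets of 229 SUTs.

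SUT720 had 17.0 and 18.7 CPM in air1 rrp6, against 2.66 and 1.40 CPM in WT, a log2 rise of 3.23 (SE 0.34, adjusted p = 0.00088). SUT279 had 4.51 and 7.61 CPM in air1 rrp6, against 0.403 and 0.526 CPM in WT, a rise of 3.63. SUT105 and SUT003 rose by 3.15 and 2.39. SUT388 and SUT153 rose by 2.03 and 1.99, and both lost their calls without WT replicate 1 (adjusted p = 0.068 and 0.10) and without either air1 rrp6 library (0.080 to 0.13), and also with the ribosomal covariate (0.097 and 0.050).

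**Figure D2:**
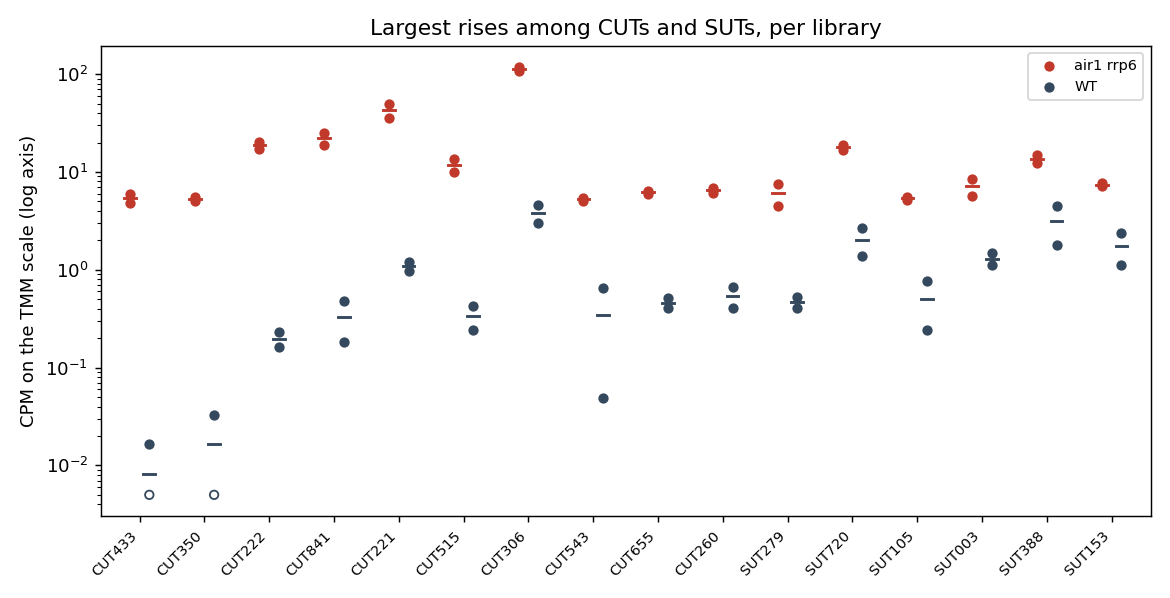
CPM on the TMM scale (log axis) of the named CUTs and SUTs in each library, air1 rrp6 in red and WT in dark blue, with bars at the strain means. Open circles are libraries with 0 counts, drawn at 0.005 CPM, and CUT433 and CUT350 have one each, in WT. The features were chosen to have no overlap between strains.

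Of 183 tested reading frames that have no coding entry in RefSeq, 25 rose (13.7%, against 7.64% of all features) and 1 fell, with a median of 0.82. The frames YPL222C-A, YDR426C and YCL007C, chosen after their values were seen, rose by 3.98, 3.85 and 4.25 on the log2 scale. YPL222C-A had 8.85 and 6.43 CPM in air1 rrp6, against 0.724 and 0.378 CPM in WT. The 1 frame that fell, YMR173W-A, had 7.93 and 6.73 CPM in air1 rrp6, against 20.3 and 24.7 CPM in WT (log2 change -1.62), and its call was lost without either library of either strain (adjusted p = 0.055 to 0.26). Such frames can overlap other transcripts, and the strand setting of the counts is not given in the sources used, so their reads cannot be told apart from those of overlapping RNAs.

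The 4 features numbered R0010W to R0040C follow the systematic names of the 2-micron plasmid, a circular plasmid that many laboratory yeast strains carry. All 4 fell. R0020C had 6 and 20 counts in air1 rrp6, against 1297 and 4927 counts in WT, a log2 change of -7.21 (SE 0.38, adjusted p = 2.1e-05). R0040C had 22 and 18 counts in air1 rrp6, against 1225 and 4293 counts in WT (log2 change -6.41). R0010W and R0030W changed by -6.65 and -6.67. Summed, the plasmid features had 2.31 and 1.85 CPM in air1 rrp6, against 252 and 195 CPM in WT. Both air1 rrp6 libraries lay far below both WT libraries in each feature. In bulk RNA, fewer plasmids or plasmid-bearing cells and less RNA per plasmid cannot be told apart.

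The same 4 features and AIR1 were the only 5 features (0.0663% of those tested) that differed between air1 rrp6 and the rrp6 strain, at log2 differences of -6.86 to -6.49. An unadjusted p below 0.05 was reached by 429 features, and 22 passed the adjusted threshold without rrp6 replicate 2. The plasmid sum was 2.31 and 1.85 CPM in air1 rrp6, against 259 and 173 CPM in rrp6. Against air2 rrp6, 6 features differed (0.0795%), which were these 5 and AIR2, 3.77 higher on the log2 scale in air1 rrp6. The plasmid sum in air2 rrp6 was 189 and 191 CPM. Air1 rrp6 is 1 strain, grown from 1 colony, and whether the low plasmid RNA goes with the AIR1 deletion or with that colony cannot be told apart.

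**Figure D3:**
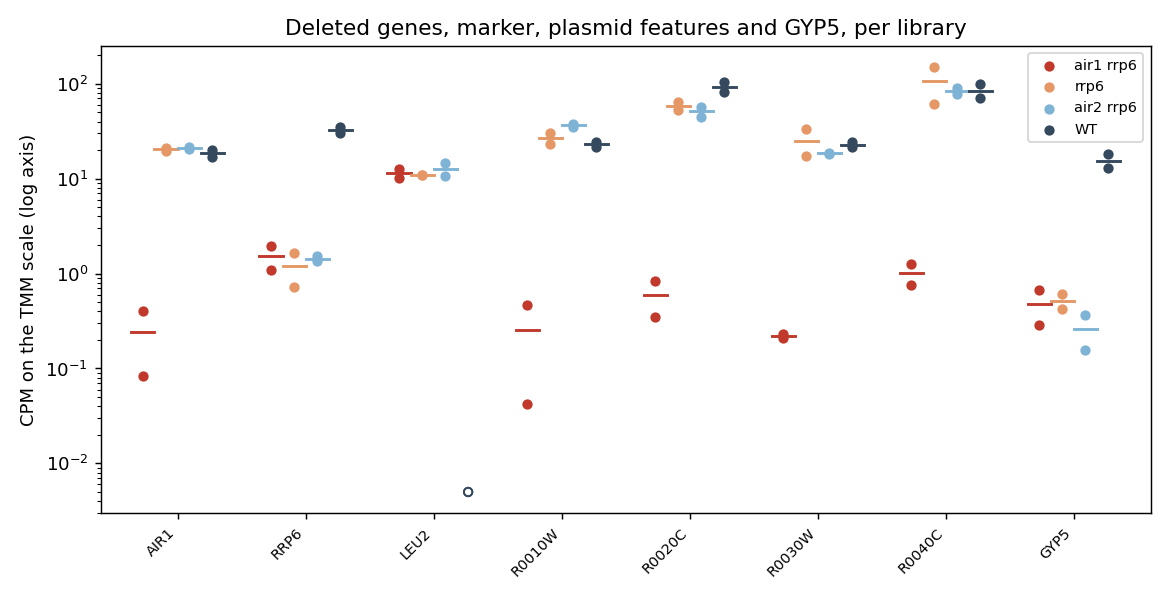
CPM on the TMM scale (log axis) of the deleted genes, the LEU2 marker, the plasmid features and GYP5 in each library of air1 rrp6, rrp6, air2 rrp6 and WT, with bars at the strain means and open circles at 0.005 CPM for 0 counts. The plasmid features are low in both air1 rrp6 libraries alone, while GYP5 is low in all 6 libraries without RRP6.

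No CUT differed between air1 rrp6 and rrp6 at the adjusted threshold, and 33 did at an unadjusted p below 0.05. The median log2 difference of CUTs, air1 rrp6 minus rrp6, was -0.15. CUTs summed to 1366 ± 76.5 CPM in air1 rrp6 and 1723 ± 105 CPM in rrp6 (SD, n = 2 each). CUT306 averaged 112 ± 7.34 CPM in air1 rrp6 and 252 ± 56.8 CPM in rrp6, and this log2 difference of -1.17 (SE 0.29) did not pass (adjusted p = 0.78). A missed threshold with duplicates does not show that the strains were alike.

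Of the 6 small RNAs past the threshold 4 are shown, both spliceosomal ones, the nucleolar one with the largest rise (SNR68) and the nucleolar one that fell (SNR56). Sequences are from RefSeq, build R64, given 5′ to 3′ as DNA, with capitals marking the C and D boxes (TGATGA and CTGA) of the nucleolar RNAs. SNR68 lies at chrIX:97111-97246 and SNR56 at chrII:88190-88277, both on the plus strand. SNR6 (U6) lies at chrXII:366235-366346 on the plus strand and SNR14 (U4) at chrV:167427-167586 on the minus strand.
SNR68: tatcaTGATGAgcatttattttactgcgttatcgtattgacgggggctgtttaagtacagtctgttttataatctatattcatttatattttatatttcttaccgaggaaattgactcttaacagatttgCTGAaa
SNR56: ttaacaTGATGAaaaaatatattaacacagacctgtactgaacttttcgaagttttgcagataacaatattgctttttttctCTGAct
SNR6: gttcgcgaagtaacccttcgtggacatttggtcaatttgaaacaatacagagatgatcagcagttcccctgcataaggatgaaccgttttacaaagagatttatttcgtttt
SNR14: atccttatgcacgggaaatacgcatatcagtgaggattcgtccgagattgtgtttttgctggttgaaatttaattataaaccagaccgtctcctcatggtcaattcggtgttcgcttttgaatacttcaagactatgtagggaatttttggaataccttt

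Of 6 tested spliceosomal features 2 rose, against 7.64% higher over all features. These were U6 and U4, which pair with each other in the spliceosome. U6 had 14.2 and 14.97 CPM in air1 rrp6, against 2.33 and 2.47 CPM in WT, a log2 rise of 2.59 (SE 0.44, adjusted p = 0.0082). U4 had 40.1 and 27.3 CPM in air1 rrp6, against 4.99 and 10.8 CPM in WT, a rise of 2.05 (adjusted p = 0.029). Both RNAs were higher in each air1 rrp6 library than in each WT library. These are levels of RNA selected by its poly(A) tail, so they need not follow the total amount of U6 or U4. Both calls depended on single libraries. U6 lost its call without WT replicate 2 or air1 rrp6 replicate 2 (adjusted p = 0.051 and 0.052), and U4 lost its call without WT replicate 1, either air1 rrp6 library or either rrp6 library (0.059 to 0.16). The other 4 spliceosomal features, LSR1 (U2), SNR19 (U1) and both forms of SNR7 (U5), did not pass.

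Of 68 tested small nucleolar RNAs 3 rose (4.41%) and 1 fell (1.47%), against 7.64% higher and 0.756% lower over all features, with a median log2 difference of 0.22 that turned to -0.40 without WT replicate 1 and to -0.04 without air1 rrp6 replicate 1. These RNAs guide the modification or processing of ribosomal RNA. SNR68 had 109 and 64.6 CPM in air1 rrp6, against 25.3 and 28.5 CPM in WT (log2 rise 1.69, adjusted p = 0.020). SNR4 had 351 and 263 CPM in air1 rrp6, against 59.6 and 132 CPM in WT (log2 rise 1.68, adjusted p = 0.047). SNR49 had 18.2 and 25.01 CPM in air1 rrp6, against 6.04 and 8.90 CPM in WT (log2 rise 1.51). Non-overlap was required of these RNAs too. SNR56 had 36.2 and 33.7 CPM in air1 rrp6, against 96.8 and 146 CPM in WT, and is the 1 that fell (log2 change -1.80). SNR68 lost its call without either WT library or air1 rrp6 replicate 1 (adjusted p = 0.080 to 0.14), and SNR4 without WT replicate 1 or any air1 rrp6 or air2 rrp6 library (0.063 to 0.25). SNR49 lost it on leaving out any library of either strain (0.055 to 0.18), and SNR56 without WT replicate 2 or either air1 rrp6 library (0.052 to 0.10). Leaving out 1 library gave 0 to 7 rises. Mature forms of these RNAs lack a long poly(A) tail, so the selected RNA need not follow their total amount. The class sum overlapped between strains, at 9444 and 6807 CPM in air1 rrp6, against 4276 and 9533 CPM in WT. In air1 rrp6 and WT the sum was higher in the library with the larger ribosomal share, and in rrp6 and air2 rrp6 it was lower there. With the ribosomal share as a covariate 0 nucleolar RNAs were called higher, and SNR56 lost its call (adjusted p = 0.097).

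**Figure D4:**
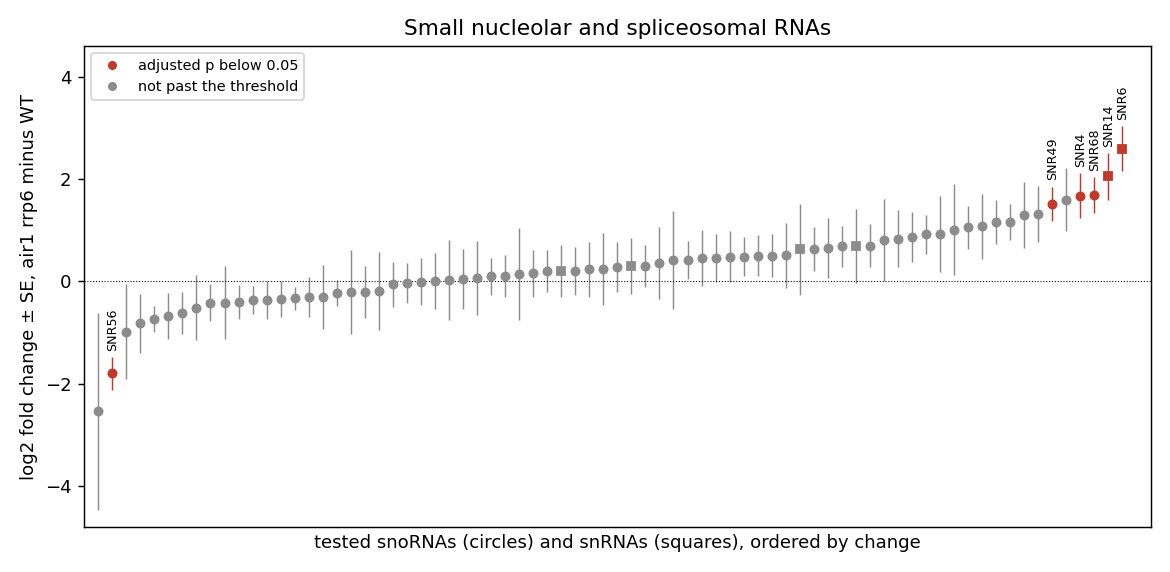
Log2 fold change (air1 rrp6 minus WT) with its SE for each tested small nucleolar RNA (circles) and spliceosomal RNA (squares), ordered by size, with those past the threshold in red and named. U6, U4, SNR68, SNR4 and SNR49 lie at the top together with SNR3, which did not pass the threshold, and SNR56 near the bottom, while the median of the nucleolar RNAs is 0.22.

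Protein-coding genes changed in both directions. Of 5638 tested, 46 rose (0.816%) and 51 fell (0.905%), with a median of -0.07. Leaving out 1 library gave 11 to 54 rises and 14 to 52 falls, and 15 of the 97 calls were kept without each library in turn. With library totals as the scale, which moved the median of all features to 0.77, AIR1, RRP6, GYP5, YNL040W, LEU1, OAC1 and PHO5 kept their falls among the genes named here, and the other coding genes named as falls did not pass, nor did SNR56 and YMR173W-A, while the 4 plasmid features kept theirs. Beside the deleted genes the largest fall was in GYP5, a gene for an activator of Rab GTPases. It had 0.289 and 0.673 CPM in air1 rrp6, against 18.0 and 12.8 CPM in WT, a log2 change of -4.93 (SE 0.49, adjusted p = 0.00081). It averaged 0.481 ± 0.27 CPM in air1 rrp6 and 0.515 ± 0.13 CPM in rrp6 (SD, n = 2 each), a log2 difference of -0.07 (SE 0.53, adjusted p = 0.99).

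Genes of leucine and branched-chain amino acid synthesis held 3 of the falls among 12 tested and no rise, against 0.905% lower among all coding genes, with a list median of -0.52 that was 0.20 with library totals. LEU1, isopropylmalate isomerase, had 75.8 and 67.8 CPM in air1 rrp6, against 459 and 394 CPM in WT, a log2 change of -2.57 (SE 0.23, adjusted p = 0.00043). OAC1, a mitochondrial carrier that exports isopropylmalate, had 13.5 and 13.5 CPM in air1 rrp6, against 68.3 and 60.8 CPM in WT (log2 change -2.26). BAT1, the mitochondrial branched-chain aminotransferase, had 71.7 and 83.5 CPM in air1 rrp6, against 247 and 218 CPM in WT (log2 change -1.58). In all 3 genes each air1 rrp6 library lay below each WT library, which the rule that named LEU1 and OAC1 required of them. The list leaves out LEU2, which rose as the marker. LEU4, LEU9 and ILV1 were within 0.1 of 0 on the log2 scale. WT has no LEU2 while air1 rrp6 carries it as the marker, as do rrp6 and air2 rrp6, so an effect of that marker and one of the deletions cannot be told apart here. LEU1 averaged 73.4 ± 7.74 CPM in rrp6 (SD, n = 2).

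The promoters of LEU1 and BAT1 are shown because they hold the letters CCGGNNCCGG, the core of the element bound by Leu3, the regulator of this pathway. Windows run from 250 bases before the coding start to 50 bases after it, from RefSeq build R64, with the match in capitals. That of LEU1 is chrVII:478603-478902 on the minus strand and that of BAT1 chrVIII:517282-517581 on the plus strand.
LEU1: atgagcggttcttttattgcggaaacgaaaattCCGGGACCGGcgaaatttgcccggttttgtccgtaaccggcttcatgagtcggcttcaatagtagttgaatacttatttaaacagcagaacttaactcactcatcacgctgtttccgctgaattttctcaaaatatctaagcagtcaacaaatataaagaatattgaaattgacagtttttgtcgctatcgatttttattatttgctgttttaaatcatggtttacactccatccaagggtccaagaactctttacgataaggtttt
BAT1: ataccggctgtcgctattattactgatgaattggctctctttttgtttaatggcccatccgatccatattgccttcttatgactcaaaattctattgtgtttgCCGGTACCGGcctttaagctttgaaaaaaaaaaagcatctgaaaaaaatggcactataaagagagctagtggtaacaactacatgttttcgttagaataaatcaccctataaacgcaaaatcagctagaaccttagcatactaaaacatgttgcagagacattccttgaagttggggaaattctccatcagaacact

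The match starts 217 bases before the start of LEU1 and 147 bases before that of BAT1. Searched on both strands, it was found in 8 of 6001 such windows (0.133%). All 8 genes were tested, and OAC1, which fell by 2.26, was not among the 8. LEU1, BAT1 and BRO1 were lower in air1 rrp6, and LEU2, the marker that WT lacks, was higher. The median log2 difference of the 8 was -0.73. With library totals, which moved the median of all features to 0.77, LEU1 kept its call. BAT1 and BRO1 lost theirs (log2 changes -0.84 and -0.12, adjusted p = 0.34 and 0.86 by edgeR's quasi-likelihood test). Among all tested coding genes 0.816% were higher and 0.905% lower. BRO1, chosen after its value was seen, encodes a protein of endosomal sorting and changed by -0.84 (adjusted p = 0.023), a call that was lost on leaving out any library of either strain or of air2 rrp6 (0.050 to 0.14). The letters CACGTG, bound by the phosphate regulator Pho4, were searched in the same way and found in 175 of 6001 windows (2.92%). Of the 168 tested genes among these, 2 were higher and 3 lower, with a median of -0.08, read against the same shares of all coding genes. The 3 lower ones were CMC4, KEL2 and the deleted RRP6, none of them in the phosphate list. A match describes letters only, and sites outside these windows or with other letters were not searched.

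Phosphate-regulated genes held 4 falls among 23 tested and no rise, against 0.905% lower among all coding genes, with a list median of -0.19 that was 0.51 with library totals. PHO5, the secreted acid phosphatase, had 8.39 and 10.3 CPM in air1 rrp6, against 62.8 and 46.9 CPM in WT (log2 change -2.55, adjusted p = 0.018), and its call was lost without either air1 rrp6 library (0.12 and 0.13). PHO12, another acid phosphatase, had 40.3 and 36.9 CPM in air1 rrp6, against 136 and 144 CPM in WT (log2 change -1.86), and kept its call without each library. PHO12 has a near-identical copy, PHO11, so the division of reads between them is uncertain. PHO8 and VTC2, for the vacuolar phosphatase and a polyphosphate synthase subunit, changed by -1.20 and -0.82. PHO8 lost its call without either WT library or air1 rrp6 replicate 2 (adjusted p = 0.056 to 0.18), and VTC2 on leaving out any WT, air1 rrp6 or air2 rrp6 library (0.057 to 0.17). PHO84, the main phosphate transporter, was -0.26 and did not pass.

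Other falls named by size were YNL040W (-2.62), GRX4 (-2.38) and HFM1 (-2.28). The list counts in this paragraph are read against 0.905% lower among all coding genes. GRX4 encodes a glutaredoxin of iron regulation and was the 1 gene to pass among 29 of the iron list, whose median was -0.16 (0.48 with library totals). It lost its call without air1 rrp6 replicate 1 (adjusted p = 0.057). HFM1, a meiotic helicase, was the 1 to pass among 26 tested meiosis genes and lost its call without WT replicate 2 or air1 rrp6 replicate 1 (0.071 and 0.12). MET6, methionine synthase, and SAM2, an S-adenosylmethionine synthetase, fell by 1.16 and 0.97, the only 2 of 24 sulfur genes to pass. The median of the sulfur list was -0.19 (0.565 with library totals). MET6 lost its call without air1 rrp6 replicate 2 (0.068) and SAM2 without WT replicate 1 or either air1 rrp6 library (0.074 to 0.14). TDH1 and TDH2, related dehydrogenases of glycolysis, fell by 1.68 and 1.31, the only 2 to pass of 22 tested. The median of the glycolysis list was -0.41 (0.18 with library totals). TDH1 lost its call when WT replicate 1, or an air1 rrp6 or rrp6 library, was left out (0.050 to 0.22), and TDH2 without WT replicate 1 or an air1 rrp6 or air2 rrp6 library (0.062 to 0.26).

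Among rises, YJL047C-A, a short open reading frame, had 6.07 and 7.02 CPM in air1 rrp6, against 0.241 and 0.313 CPM in WT (log2 rise 4.46, SE 0.32, adjusted p = 9.5e-05). YCL021W-A had 19.6 and 15.6 CPM in air1 rrp6, against 3.70 and 1.65 CPM in WT (log2 rise 2.81). HPF1, a cell wall mannoprotein, had 19.3 and 14.6 CPM in air1 rrp6, against 6.12 and 5.46 CPM in WT (log2 rise 1.55). All 3 kept their calls without each library in turn. NCA3 and SNA3 rose by 2.16 and 1.29, and lost their calls without WT replicate 2 (adjusted p = 0.063 and 0.052), SNA3 also without air1 rrp6 replicate 2 (0.050). YJR149W and YCL049C rose by 1.30 each and lost their calls, YJR149W without WT replicate 1 or any air1 rrp6 or air2 rrp6 library (0.059 to 0.22), and YCL049C without WT replicate 2 or air1 rrp6 replicate 1 (0.14 and 0.16). Of 12 tested COS genes 2 rose, against 0.816% higher among all coding genes, with a list median of 0.13 (0.83 with library totals). These genes are a subtelomeric family of similar copies whose reads may be divided between them. COS8 had 17.6 and 17.4 CPM in air1 rrp6, against 6.28 and 8.85 CPM in WT (log2 rise 1.19, adjusted p = 0.021), and lost its call without WT replicate 1 or either air1 rrp6 library (0.10 to 0.12). COS10 rose by 1.33 and lost its call without either WT library, air1 rrp6 replicate 1 or either air2 rrp6 library (0.053 to 0.24).

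Genes of RNA surveillance itself were covered by 4 lists, read against 0.816% higher and 0.905% lower among all coding genes. None of 6 TRAMP subunits and Rrp6 cofactors passed the test, with a median of 0.00 (0.80 with library totals), and TRF5 and MTR4 differed by -0.03 and -0.30. None of 10 exosome ring, cap and Dis3 genes passed either, although all 10 were above 0 (0.08 to 0.78, median 0.23). With library totals the median of these genes was 1.07, and 1 of them was called higher. In the list of 9 factors that end noncoding transcription 1 rose. NRD1, an RNA-binding protein of that machinery, had 59.6 and 38.2 CPM in air1 rrp6, against 11.7 and 19.9 CPM in WT (log2 rise 1.61, adjusted p = 0.020), and lost its call without WT replicate 1 or air1 rrp6 replicate 1 (0.12 and 0.16). NAB2, a nuclear poly(A)-binding protein and the 1 of 14 binding and export factors to rise, had 87.7 and 81.8 CPM in air1 rrp6, against 42.7 and 38.1 CPM in WT (log2 rise 1.07). Its call was lost without WT replicate 2 or either air1 rrp6 library (0.050 to 0.068).

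Ribosomal protein genes held calls at shares near those of all coding genes (0.816% higher and 0.905% lower). RPL8A had 91.2 and 96.8 CPM in air1 rrp6, against 253 and 259 CPM in WT (log2 change -1.45), and kept its call without each library. RPL18B had 329 and 378 CPM in air1 rrp6, against 169 and 162 CPM in WT (log2 rise 1.09), and lost its call without either library of either strain (adjusted p = 0.065 to 0.12). They were the only 2 of 76 large subunit genes to pass, and RPS14B, which lost its call on leaving out any library of air1 rrp6, WT or air2 rrp6 (0.061 to 0.19), the only 1 of 56 small subunit genes. The list medians of 0.08 and 0.02 were -0.06 each without WT replicate 1. Each has a paralog of very similar sequence, so the division of reads is uncertain.

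**Figure D5:**
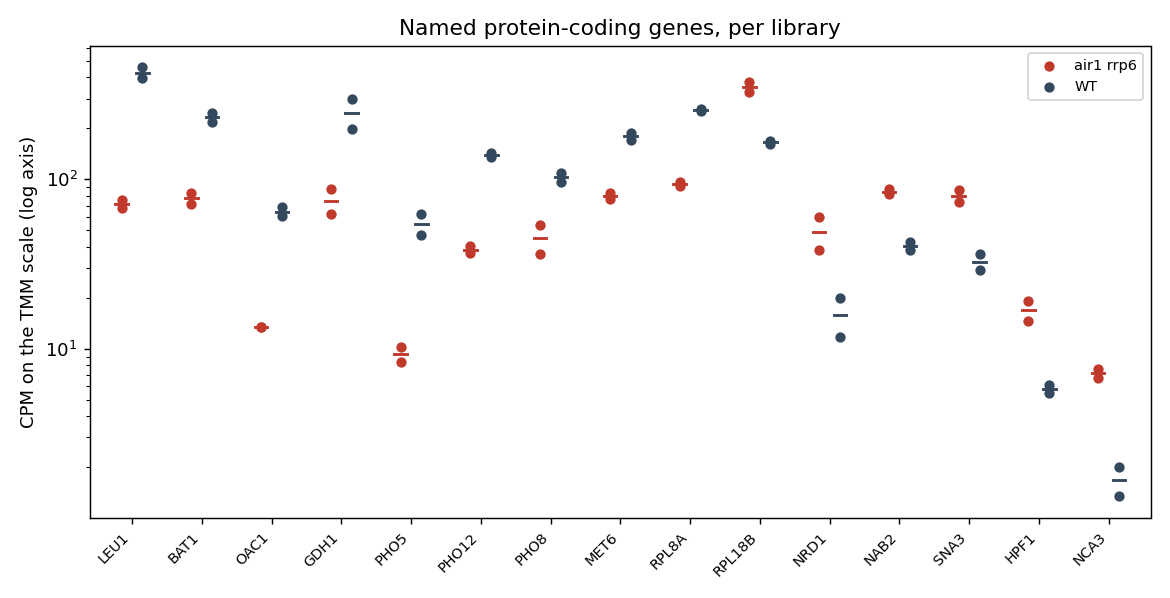
CPM on the TMM scale (log axis) of named protein-coding genes in each library, air1 rrp6 in red and WT in dark blue, with bars at the strain means. LEU1 to RPL8A lie lower in both air1 rrp6 libraries than in both WT libraries, and RPL18B to NCA3 lie higher.

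Further lists with no member past the threshold were cell wall integrity targets (23 tested), heat shock chaperones (21), purine synthesis (11, median -0.37, 0.30 with library totals), histones (10), nuclear genes of the respiratory chain (36), ribosome assembly proteins (35), sterol synthesis (23), glucose-repressed carbon genes (16), DNA damage (13), silent cassettes and mating (12) and drug and stress export (11). The list on silent cassettes and mating leaves out HML, MATALPHA and HO, which did pass and were chosen after their values were seen. HML and MATALPHA rose and HO fell. With the 2 strains fitted alone, HML and MATALPHA lost their calls (log2 rises 1.03 and 1.04, adjusted p = 0.086 and 0.083 by edgeR's quasi-likelihood test). Both also lost them with the ribosomal covariate (adjusted p = 0.18 and 0.20), and on leaving out any library of WT, air1 rrp6 or air2 rrp6. With library totals HO lost its call (log2 change -0.45, adjusted p = 0.55). HO also lost it with the ribosomal covariate (adjusted p = 0.13), and without WT replicate 2 or either air1 rrp6 library (log2 changes -1.10 to -1.38). None of 6 nucleotide genes under early termination control passed, and all 6 were below 0 (median -0.26, 0.45 with library totals). All 15 tested PAU genes, a subtelomeric family, were above 0 with a median of 0.85, at under 1 CPM each, and none passed. Their copies are near-identical. Transfer RNAs, ribosomal DNA and mitochondrial features had no call, with medians of -1.21, -0.98 and -0.40. Transfer RNA sums overlapped, at 463 and 124 CPM in air1 rrp6, against 202 and 1245 CPM in WT, and were higher in the library of each strain with the larger ribosomal share.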

How the data were processed

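Polyadenylated RNA was sequenced in 2 libraries for each of 4 strains. Each value the authors deposited is an expected count of 1 feature in 1 library, unscaled for depth, and 11.1 to 13.0% of the values in a library are fractional. The submitters' processing notes name edgeR 2.2.5, SAMtools and Bowtie 0.12.7, without roles. The annotation, build and strand setting behind the counts: not given in the sources used here. A second deposited table of comparisons was not used.

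Expected counts were rounded. Features kept by filterByExpr (minimum count 10) were scaled by TMM and fitted with the robust quasi-likelihood model of edgeR 4.0.16 in R 4.3.3 over all 8 libraries with 1 mean per strain. Adjusted p-values are Benjamini-Hochberg over 7543 features, threshold 0.05. An exact test of 2 libraries against 2 cannot go below p = 0.33. Alternatives included DESeq2 1.42.0, other scalings, no filter, a replicate block, the ribosomal share as a covariate, the 2 strains alone and each library left out.

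The members and lists were chosen with earlier results of these data known. Named genes were the deleted genes and markers, the 10 largest coding changes per direction, 10 CUT and 6 SUT rises that reached a mean of 5 CPM in 1 strain without overlapping libraries, all called small nucleolar RNAs, all plasmid features, and up to 5 members of each list with at least 2 calls, the surveillance lists and the locus neighbours. Genes outside the rule, among them NAB2, GDH1, RPS14B, U4 and U6, were chosen after their values were seen. A gene that met the threshold is not reported here. Floors and intervals cover counting error only. Classes and R64 sequences came from RefSeq.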

Additional observations from a re-analysis of the deposited data

Results flagged for a closer look

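These 5 features differed between air1 rrp6 and rrp6 when the difference was tested directly (edgeR's quasi-likelihood test, adjusted over all features). The log2 difference, air1 rrp6 minus rrp6, was -6.49 for AIR1, which is deleted in air1 rrp6. It was -6.86 for R0010W, -6.55 for R0020C, -6.82 for R0030W and -6.73 for R0040C, the 4 plasmid features, each lower in 2 of 2 air1 rrp6 libraries.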

How the results depend on the processing

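No called value changed direction under the 17 alternatives, while the untested medians of coding genes and small nucleolar RNAs changed sign under some, as given below. Values below follow the order higher, lower, CUTs higher, SUTs higher, coding higher and coding lower, where given. With library totals, which moved the median of all features to 0.77, these were 1108, 15, 642, 236, 146 and 7, with 18 small nucleolar RNAs higher, medians of 3.71 (CUTs), 1.70 (SUTs), 0.66 (coding) and 1.15 (small nucleolar), 11 features different from air2 rrp6, and 98.7% of calls higher against 91.0% as reported. With the ribosomal share as a covariate they were 123, 14, 90, 17, 10 and 10, with 0 small nucleolar RNAs higher and medians of 2.95 (CUTs) and 0.95 (SUTs). With the 2 strains alone they were 317, 31, 235, 44, 23 and 24. DESeq2 gave 95 lower, 81 coding lower, 7 small nucleolar RNAs higher, a coding median of -0.09, and 9 and 20 features different from rrp6 and air2 rrp6. Totals outside ribosomal DNA gave 34 lower, 28 coding lower and a coding median of 0.04. TMM from coding genes gave a coding median of 0.00. The CUT median was 2.59 with no filter and 2.90 with WT replicate 2 thinned to the depth of WT replicate 1, chosen after seeing the data. The cause of these shifts was not tested.

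With the replicate number as a block, 134 features were lower, 143 SUTs, 83 coding genes and 6 small nucleolar RNAs were higher, 123 coding genes were lower and 15 features differed from air2 rrp6, and SNR4 lost its call (adjusted p = 0.087). Deviations of same-numbered libraries correlated at 0.135 across features, and the labels name no batch behind the numbers, so pairing was not assumed.

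Leaving out 1 library gave 156 to 556 features higher, 18 to 57 lower, 117 to 384 CUTs, 21 to 88 SUTs, 11 to 54 coding genes higher and 14 to 52 lower, 0 to 7 small nucleolar RNAs, medians of 2.56 to 4.06 (CUTs), 0.70 to 1.09 (SUTs), -0.13 to -0.07 (coding) and -0.40 to 1.17 (small nucleolar), 5 to 22 features different from rrp6 and 6 to 8 from air2 rrp6. With a lone library left, that library is assumed to vary like the other strains. BAT1, MET6, GDH1, PHO12 and RPL8A were among the named falls that lost their calls with library totals. Single-gene values kept direction and call in 1600 cases, lost the call in 232, moved in 54 and gained it in 1.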

Other observations

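Further changes concerned genes chosen after their values were seen. GDH1, a glutamate dehydrogenase, had 87.3 and 62.1 CPM in air1 rrp6, against 297 and 199 CPM in WT (log2 change -1.73, adjusted p = 0.0059 by edgeR's quasi-likelihood test), and lost its call without air1 rrp6 replicate 2 (0.052). AMS1 and APE1, vacuolar hydrolases delivered by the same selective autophagy route, fell by 1.81 and 1.30, and each lost its call without WT replicate 1 (0.056 and 0.099) and without air1 rrp6 replicate 2 (0.14 and 0.22), AMS1 also without air1 rrp6 replicate 1 (0.066) and APE1 without either air2 rrp6 library (0.054). FLO1, a flocculin, and INO1, inositol phosphate synthase, rose by 2.17 and 2.50 at under 10 CPM. FLO1 lost its call without WT replicate 1 or any air1 rrp6 or air2 rrp6 library (0.053 to 0.21), and so did INO1 (0.059 to 0.18). SRG1, a noncoding RNA transcribed across the SER3 promoter, had 27.7 and 30.8 CPM in air1 rrp6, against 15.6 and 17.1 CPM in WT (log2 rise 0.84, adjusted p = 0.033), and lost its call without either library of either strain (0.11 to 0.20). No gene of the list on SER3 and serine synthesis passed among 7 tested.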
